A study of Caenorhabditis elegans with 2 samples.

Results

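Chaperonins are barrel-shaped machines that close around a newly made or unfolded protein and use ATP to help it fold. The genes described here are the 8 genes of the cytosolic chaperonin CCT of Caenorhabditis elegans, cct-1 to cct-8, and hsp-60, the gene for the mitochondrial chaperonin. They were taken by name, and all 9 were found among the 19973 protein-coding genes of the nuclear chromosomes in the Ensembl annotation of WBcel235. The data are chromatin immunoprecipitation peaks (ChIP-seq) from 1 group, whole first-stage (L1) larvae of mixed sex and unknown age, with 2 biological replicates. The strain of both replicates, OP217, carries unc-119(ed3) III and the insertion ddIs172, and the labels describe ChIP against eGFP-aly-2 but give the antibody as aly-2. Whether the tag or ALY-2 itself was precipitated, and so whether untagged ALY-2 could contribute, cannot be told from them. The promoter that drives the tagged gene and the way the cultures were kept apart are not given there, and whole larvae mix all tissues. No second genotype, stage or treatment was compared, and no untagged or input sample was used here.

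ALY-2 is a worm member of the REF/ALY family, proteins that are loaded on messenger RNA during transcription and processing and help to hand it to the nuclear export receptor. CCT, also called TRiC, is built from a pair of stacked rings, each with one copy of every subunit, so that its 8 genes must all be expressed to make the complex. Its best known clients are actin and tubulin. HSP-60 forms a ring of identical subunits in the mitochondrial matrix, works with a small lid protein of the HSP10 family, and its gene is a standard target of the mitochondrial unfolded protein response.

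The authors deposited a final list of 1446 peaks, a pooled list of 15675 peaks over both replicates, and lists of 26798 peaks for replicate 1 and 25463 for replicate 2. Each peak has a signal value from the authors' caller, on a scale the sources used here do not give, and ranks count from the highest signal. The final list is the 1446 highest pooled peaks, with signals of 42.7 and above, so the longer lists hold many peaks of low signal. Read depth is unknown. A pooled or final signal has no replicate error of its own, and the agreement of both replicates is therefore given by rank.

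The 9 genes lie on chromosomes II, III, IV and V of the ce11 genome (WBcel235). On chromosome II, cct-1 runs from 8185443 to 8187601, cct-2 from 8927741 to 8929815, cct-3 from 2233540 to 2243539 and cct-4 from 8283667 to 8285711, all on the plus strand. On chromosome III, cct-5 runs from 4499188 to 4508114 and cct-6 from 5853530 to 5855687 on the minus strand, and hsp-60 from 1619742 to 1625803 on the plus strand. The gene cct-7 lies on the plus strand of chromosome V from 1872246 to 1875505, and cct-8 on the minus strand of chromosome IV from 1087108 to 1093920. Their median length was 3260 bp, against 2027 bp for all coding genes.

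A set of 4 sequences is shown because it holds the final summits upstream of chaperonin genes. Each is given 5′ to 3′ on the strand of the chaperonin gene, from RefSeq WBcel235, within 100 bp of the summit and outside the flanking genes. Capitals mark matches, on either strand, to TTCNNGAA or GAANNTTC, the inverted pairs of which heat shock elements are built, or to the CAAT box word CCAAT. Neither the TATA box word TATAAA nor the repeat GAGAGA, also searched, occurs in them. The summit is the middle base of the first 3 sequences and base 21 of the last. They span chrII:8185116-8185316 for cct-1, chrIV:1094268-1094468 for cct-8, chrIII:1619037-1619237 for hsp-60 and chrIII:5855897-5856017 for cct-6.
cct-1: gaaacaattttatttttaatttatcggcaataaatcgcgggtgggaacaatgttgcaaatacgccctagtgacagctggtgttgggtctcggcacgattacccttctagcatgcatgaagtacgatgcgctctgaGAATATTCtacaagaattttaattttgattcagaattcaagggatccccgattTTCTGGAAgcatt
cct-8: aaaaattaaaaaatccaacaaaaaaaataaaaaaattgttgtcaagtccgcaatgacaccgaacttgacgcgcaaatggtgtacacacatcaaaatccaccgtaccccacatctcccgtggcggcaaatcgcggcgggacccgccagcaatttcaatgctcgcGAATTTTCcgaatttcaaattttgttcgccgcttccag
hsp-60: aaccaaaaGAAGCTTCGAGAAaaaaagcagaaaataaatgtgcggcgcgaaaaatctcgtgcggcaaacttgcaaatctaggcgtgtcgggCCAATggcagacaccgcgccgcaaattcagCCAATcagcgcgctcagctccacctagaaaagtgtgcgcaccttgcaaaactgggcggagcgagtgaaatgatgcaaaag
cct-6: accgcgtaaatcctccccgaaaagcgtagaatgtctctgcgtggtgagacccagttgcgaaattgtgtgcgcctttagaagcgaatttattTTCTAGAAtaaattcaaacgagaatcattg

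Final summits lay in the promoter window of 4 of the 9 genes, namely cct-1, cct-8, hsp-60 and cct-6. That window reached from 1000 bp before the annotated 5′ end to 200 bp past it, and 5.58% of all coding genes had a final summit there. Of these 4 peaks, 3 stood near the top of the list and 1 near its end. The peak upstream of cct-1, the gene for the alpha subunit, had a signal of 190.0 and rank 26, with its summit 227 bp upstream. Replicate 1 placed it at rank 31 and replicate 2 at rank 30. The peak upstream of cct-8, the gene for the theta subunit, had a signal of 177 and rank 32, with its summit 448 bp upstream. Its ranks were 56 in replicate 1 and 29 in replicate 2. The peak upstream of hsp-60 had a signal of 155 and rank 57, with its summit 605 bp upstream, and ranks of 44 in replicate 1 and 76 in replicate 2. On each replicate's own scale, the signals in replicate 1 and replicate 2 were 92.0 and 97.7 at cct-1, 79.6 and 97.7 at cct-8, and 83.4 and 73.2 at hsp-60. All 3 peaks thus stood within the first 100 of both replicate lists. When the coding genes were ordered by their highest promoter signal, cct-1 took place 18, cct-8 place 24 and hsp-60 place 43.

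The remaining promoter peak had a far lower signal. The peak upstream of cct-6, the gene for the zeta subunit, had a signal of 46.1 and rank 1225, 310 bp upstream, with signals of 27.3 in replicate 1 and 16.6 in replicate 2. Replicate 1 placed it at rank 898 and replicate 2 at rank 3679, so replicate 2 alone would not have placed it among its 1446 highest peaks. The other 5 promoters had no final summit. The highest pooled signal in the window was 37.4 at cct-5 (rank 1931), 26.3 at cct-7 (rank 4312), 19.5 at cct-2 (rank 9479) and 18.2 at cct-4 (rank 11388). No list held a summit in the cct-3 window. A pooled summit of any signal was present in 8 of the 9 promoters, against 24.9% of coding genes, for which the median of the highest signal, where there was one, was 24.8.

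**Figure D1:**
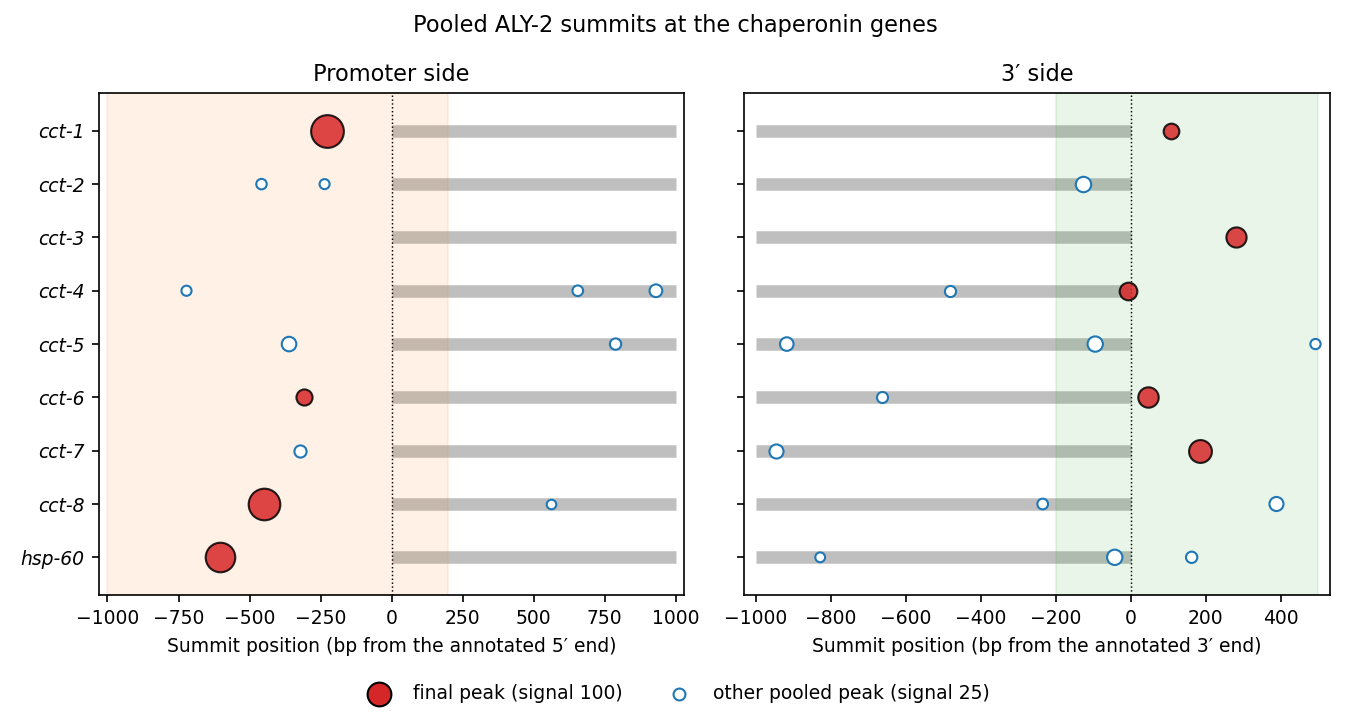
Pooled summits around the annotated 5′ end (left) and 3′ end (right) of each chaperonin gene, in bp along the gene's own strand. Grey bars are gene bodies (drawn for at most 1000 bp), circle area grows with pooled signal, filled circles are final peaks, and shading marks the promoter and 3′ end windows. Large promoter circles appear at cct-1, cct-8 and hsp-60 alone, whereas every gene has a circle in the 3′ end window.

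Every one of the 9 genes is arranged head to head with its nearest upstream coding gene, against 45.0% of coding genes. The annotated 5′ ends of these pairs lie 331 to 1190 bp apart. Within 1190 bp, a limit set by the widest gap of the 9 genes themselves, 19.5% of coding genes have a divergent neighbour. Among coding genes so arranged, 13.5% had a final promoter summit. All 4 final promoter summits of the chaperonin genes lay in the window of the divergent neighbour too, and all were nearer to the 5′ end of that neighbour. The cct-1 summit lay 193 bp upstream of mig-5, a Dishevelled homologue of Wnt signalling. The cct-8 summit lay 173 bp upstream of Y55F3AR.2, annotated in RefSeq as a thioredoxin domain protein, and 159 bp past the end of the non-coding gene Y55F3AR.4. The cct-6 summit lay 21 bp upstream of alh-9, an aldehyde dehydrogenase gene. The hsp-60 summit lay 208 bp upstream of Y22D7AL.10, which RefSeq annotates as the mitochondrial HSP10 protein, so this 1 peak sits between the genes for the chaperonin and its lid.

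Giving each summit to its nearest annotated 5′ end alone left 0 of the 9 genes with a final promoter summit, against 4.0% of all coding genes. Which gene of each pair the recovered chromatin belongs to therefore cannot be told apart from peak positions. Summits shared by several coding windows were common, at 291 of the 817 final promoter summits (35.6%). Among the genes with a final promoter peak the gap to the neighbour was 331 bp at cct-6, 420 bp at cct-1, 621 bp at cct-8 and 813 bp at hsp-60. Among those without one it was 439 bp at cct-7, 459 bp at cct-4, 741 bp at cct-5, 1070 bp at cct-3 and 1190 bp at cct-2. Both ranges overlapped, and the widest gaps, at cct-2 and cct-3, had no final peak.

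**Figure D2:**
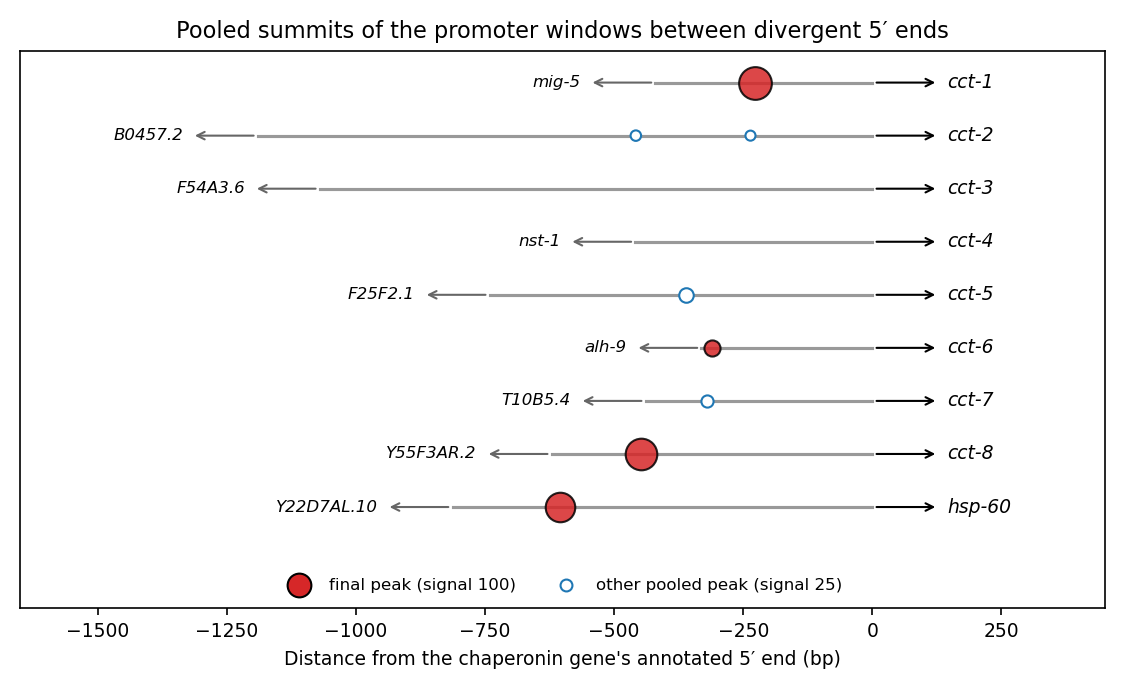
Pooled summits of each chaperonin gene's promoter window, placed between its annotated 5′ end (at 0 bp, right arrow) and that of its divergent neighbour (left arrow); circles as in the map of summits. The cct-4 summit lies beyond the 5′ end of nst-1 and is not drawn, and all 4 filled circles, the final peaks, lie nearer to the neighbour's 5′ end.

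Annotated 5′ ends may themselves lie downstream of where transcription starts. Most worm messenger RNAs are trans-spliced, which replaces the first stretch of the transcript by a spliced leader at an acceptor site whose usual form is TTTCAG. The annotated 5′ UTR was 1 to 30 bp long in all 9 genes. The 20 bases before each annotated 5′ end are shown for this reason, with TTTCAG, or failing that a final CAG, in capitals.
cct-1, chrII:8185423-8185442: ttaatacggttgtgTTTCAG
cct-2, chrII:8927721-8927740: tttcatgtttcgtaTTTCAG
cct-3, chrII:2233520-2233539: aaattcccccaaatttcCAG
cct-4, chrII:8283647-8283666: acatcataatttaatttgca
cct-5, chrIII:4508115-4508134: taacatgctaatatTTTCAG
cct-6, chrIII:5855688-5855707: agttgaattcttgtTTTCAG
cct-7, chrV:1872226-1872245: aattaataattcaaattCAG
cct-8, chrIV:1093921-1093940: taaaatctaataatttgCAG
hsp-60, chrIII:1619722-1619741: ttttcacacaattttcgtag

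The full word TTTCAG stood directly before the annotated 5′ end in 4 of the 9 genes, against 12.3% of coding genes, and a final CAG in 7 of 9, against 22.1%. Distances from a summit to a 5′ end are thus distances to the first base of the annotated messenger RNA.

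Gene ends carried final peaks at 5 of the 8 CCT genes, against promoters at 3 of 8. In the window from 200 bp before to 500 bp past the annotated 3′ end, a final summit was found at 5 of the 9 genes, against 3.15% of all coding genes. All 5 were CCT genes. The strongest was at cct-7, the gene for the eta subunit, with a signal of 92.5, rank 226, and a summit at 184 bp beyond that end. Its ranks were 479 in replicate 1 and 120 in replicate 2. At cct-6 the signal was 73.8 (rank 425) with the summit 46 bp past the end, and the ranks were 579 in replicate 1 and 504 in replicate 2. At cct-3, the gene for the gamma subunit, the signal was 72.2 (rank 455) with the summit 281 bp past the end, and the ranks were 506 in replicate 1 and 389 in replicate 2. These 3 peaks were among the 1446 highest of each replicate.

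At the 2 other gene ends the replicates differed. The cct-4 peak, at the gene for the delta subunit, had a signal of 55.2 and rank 822, with its summit in the 3′ UTR, 8 bp before the end. It was ranked 367 in replicate 1 but 3974 in replicate 2. The cct-1 peak had a signal of 43.7 and rank 1381, near the end of the list, and a summit at 107 bp beyond the gene. It was ranked 2259 in replicate 1. In replicate 2 a pair of peaks overlapped it, the higher ranked 1062 with its summit 20 bp before the end, and the lower ranked 3476. The median position of the 5 summits was 107 bp past the 3′ end, against 108 bp for the 643 pairs of a final summit and such a window over all coding genes.

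The 4 remaining genes had a pooled summit in the same window just below the final list or not far from it. The signal was 42.1 at cct-2 (rank 1478), 41.6 at hsp-60 (rank 1517), 41.5 at cct-5 (rank 1528) and 35.1 at cct-8 (rank 2233). The last peak inside the final list had a signal of 42.71 and the first outside it 42.70. In the replicates, the cct-2 peak was ranked 1544 and 2275, the hsp-60 peak 3045 and 1191, the cct-5 peak 1303 and 3774, and the cct-8 peak 5800 and 1823, replicate 1 first. When the pooled list was taken to its 2892 highest peaks, all 9 genes had a summit at the 3′ end, against 5.81% of coding genes. In the whole pooled list all 9 had one, against 19% of coding genes, and the median of the highest signal was 43.7, against 23.9 for the coding genes with one. With the upper 50% of final peaks alone, 3 of 9 remained, against 1.69% of coding genes.

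What lies beyond the 3′ end differs between the genes. At 5 of the 9 gene ends, some with final peaks and others with peaks below the final list, the summit also lay in the promoter window of a gene that follows on the same strand. The cct-6 summit lay 215 bp upstream of ddx-23, an RNA helicase gene, and the cct-3 summit 178 bp inside F54A3.2. Below the final list, the cct-2 summit lay 154 bp upstream of mrpl-50, a mitochondrial ribosomal protein gene, and the cct-5 summit 238 bp upstream of the transcription factor gene atf-7 and 245 bp upstream of C07G2.5. The hsp-60 summit lay 872 bp upstream of Y22D7AL.4, at the far side of that window. At cct-1 and cct-7 the gene that follows is convergent, and the summits lay in the last part of T05C12.8 and zig-11, 223 and 211 bp before their 3′ ends. At cct-4 no other coding gene followed for 9118 bp. At cct-8 the pooled summit lay 388 bp past the end, and csn-4 follows on the same strand after 95 bp. Final summits outside the promoter windows of all other coding genes were found at the ends of cct-1, cct-4 and cct-7, or 3 of 9, against 1.71% of coding genes. That is 3 of the 5 members with a final 3′ end summit, against 342 of the 630 coding genes with one.

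**Figure D3:**
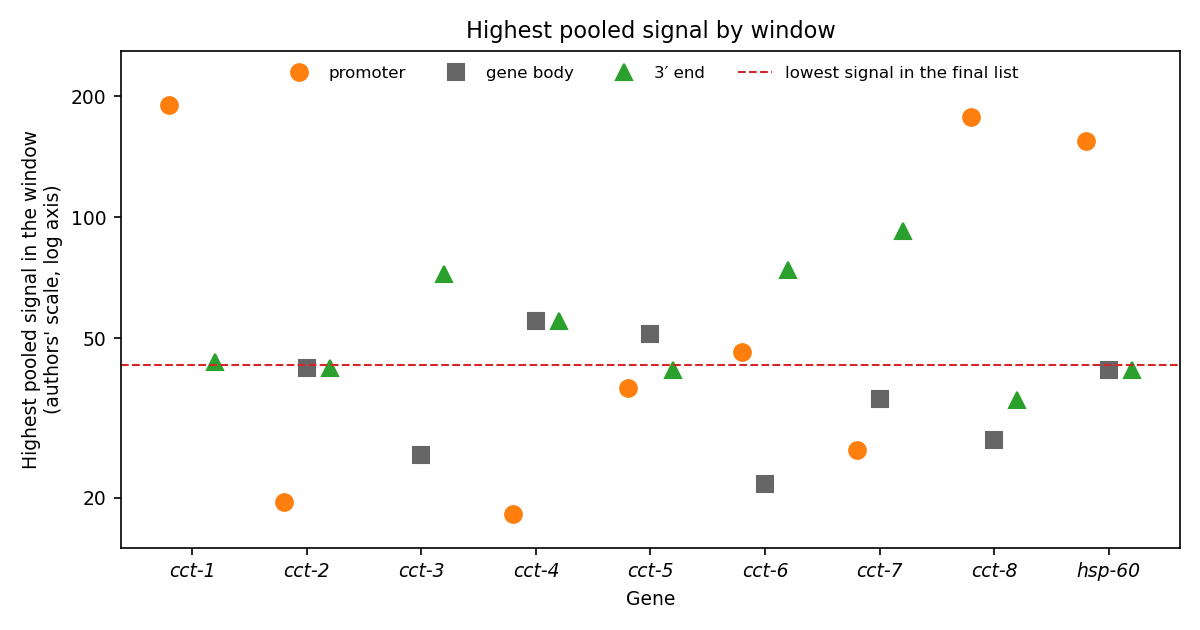
Highest pooled signal of each chaperonin gene in the promoter window, the gene body and the 3′ end window, on the authors' scale with a log axis; a missing symbol means no summit in the pooled list, and a summit can count in both gene body and 3′ end window. Promoter signals run from 18.2 to 190.0, whereas 3′ end signals lie between 35.1 and 92.5, close to or above the dashed line at 42.7, the lowest signal in the final list.

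Inside the genes, final summits were found in the gene bodies of cct-4 and cct-5, or 2 of 9, against 2.32% of coding genes. The cct-4 summit is the one in its 3′ UTR described above. The cct-5 summit lay in an intron, 3640 bp past the 5′ end, with a signal of 51.2 and rank 985, and ranks of 982 in replicate 1 and 1481 in replicate 2. It was the only final peak of cct-5, the gene for the epsilon subunit. The gene body of cct-5 also held 9 of the lower pooled summits, among them 1 of signal 37.9 at rank 1858. Over all 9 gene bodies the pooled list had 34 summits, or 0.782 per kb, against 0.146 per kb over all coding genes. Of these 34 summits, 22 lay in introns, 7 in coding sequence and 5 in 3′ UTRs. The same split was not counted over all coding genes, so no preference can be read from it. At hsp-60, an intron summit 1176 bp past the 5′ end had a signal of 39.9 and rank 1662. The gene body of cct-1 held no pooled summit.

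Set side by side, the subunits of CCT did not share 1 pattern of final peaks. Both ends carried a final summit at cct-1 and cct-6, the promoter alone at cct-8, the 3′ end alone at cct-3, cct-4 and cct-7, and an intron alone at cct-5. The gene cct-2, for the beta subunit, had none in any window. These groups depend on the cutoff at 42.7: the 3′ end signal was 43.7 at cct-1 but 42.1 at cct-2 and 41.5 at cct-5. With the 2892 highest pooled peaks, all 9 genes had a 3′ end summit. The 3′ end peaks of cct-1 and cct-4, the cct-6 promoter peak and the cct-5 intron peak were each among the 1446 highest of 1 replicate alone. Of all coding genes, 0.656% had final summits in both the promoter and 3′ end windows, and 2.50% had one at the 3′ end and none in the promoter window. Final summits in any of the 3 windows were found at 8 of the 9 genes, against 9.1% of coding genes. Over the CCT genes the highest pooled promoter signal ran from 190.0 down to no summit, with a median of 31.9, whereas the highest 3′ end signal ran from 35.1 to 92.5, with a median of 49.4. The order of the promoter signals was cct-1, cct-8, cct-6, cct-5, cct-7, cct-2 and cct-4, with cct-3 last. Replicate 1 gave cct-1 and cct-8 the first places too, followed by cct-6, cct-7, cct-2 and cct-5, with no summit at cct-3 and cct-4. In replicate 2 cct-8 and cct-1 were ranked 29 and 30, and cct-5, cct-6 and cct-4 followed, with no summit at cct-2, cct-3 and cct-7. In both replicates, then, cct-1 and cct-8 led the other CCT genes and cct-3 had no summit, whereas the genes between them changed places. The lone mitochondrial gene, hsp-60, had a strong promoter peak, as cct-1 and cct-8 did, and like cct-8 a 3′ end peak below the final list. Its 3′ end signal of 41.6 was nearer to the 43.7 at cct-1, just inside that list, than to the 35.1 at cct-8.

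All 10 final peaks of these genes overlapped a peak in both replicate lists. Those long lists were input to the step that made the final list, so such overlap was largely fixed beforehand. With no value over all final peaks to set beside it, the median distance between the pooled summit and the summit of the highest overlapping peak was 6 bp in replicate 1 and 4.5 bp in replicate 2. Such a peak was among the 1446 highest in 9 of 10 cases in replicate 1, against 78.4% of all final peaks. In replicate 2 it was so in 7 of 10 cases, against 79.1%. In both it was so in 6 of 10, against 60.7%. Counted in the 1446 highest peaks of each replicate, promoter summits were found at 5 genes in replicate 1 and 3 in replicate 2 (mean 4 ± 1.41, SD, n = 2), against 5.28% and 5.08% of coding genes. Summits at 3′ ends were found at 5 genes in each replicate, against 2.91% of coding genes in replicate 1 and 3.3% in replicate 2. In gene bodies they were found at 1 gene in replicate 1 and 3 in replicate 2 (mean 2 ± 1.41, SD, n = 2), against 2.31% and 2.52% of coding genes. The 5 genes with a 3′ end summit were not the same: cct-3, cct-6 and cct-7 had one in both, cct-4 and cct-5 in replicate 1 alone, and cct-1 and hsp-60 in replicate 2 alone. The promoters of cct-1, cct-8 and hsp-60 were shared by both, and those of cct-6 and cct-7 were found in replicate 1 alone, that of cct-7 at rank 1446, the last place counted.

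**Figure D4:**
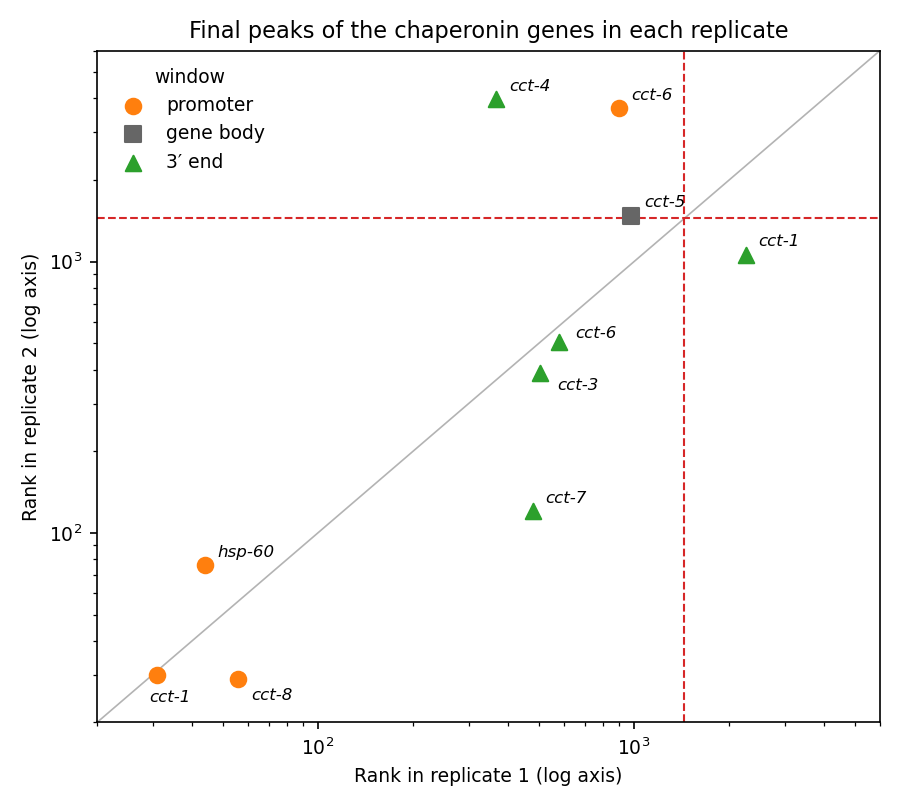
Rank of the 10 final peaks of the chaperonin genes in replicate 1 and replicate 2 (log axes), taking the overlapping peak of highest signal in each list. Dashed lines mark rank 1446. In both replicates 6 peaks lie within it, including the promoter peaks of cct-1, cct-8 and hsp-60 at ranks of 29 to 76.

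The searched words are described here by their letters alone, since a match is not a shown binding site. In the stretch from 250 bp before to 50 bp after the annotated 5′ end, TTCNNGAA was found in 5 of the 9 genes (cct-1, cct-4, cct-5, cct-6 and cct-7), against 18.9% of coding genes. GAANNTTC was found in cct-1, cct-3, cct-5, cct-7 and cct-8, against 18.5%. In the printed hsp-60 sequence both words overlap in 1 run of capitals, and CCAAT occurs at 2 places beside the summit. CCAAT was found in 6 of 9 promoters, against 45.5% of coding genes, TATAAA in 3 of 9, against 37.9%, and GAGAGA in 0 of 9, against 21.8%. Within 100 bp of the 10 final summits, TTCNNGAA and GAANNTTC were each found in 4, against 10.4% and 11.2% of all 1446 final summits. CCAAT was found there in 4, against 30.9%, GAGAGA in 2, against 31.0%, and TATAAA in 1, against 18.3%. The GC content there had a median of 40.3%, against 39.3% for all final summits. It was highest, at 50.7%, at the hsp-60 promoter summit.

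Genes that work with the chaperonins also carried final peaks. Of the 6 genes for prefoldin, the complex that hands unfolded actin and tubulin to CCT, 3 had a final promoter summit, against 5.58% of coding genes: pfd-6 at rank 150, pfd-1 at rank 187 and pfd-4 at rank 968. No prefoldin gene had one at the 3′ end. Of 12 actin and tubulin genes listed as clients, a chosen set, 7 had a final summit at the 3′ end, against 3.15% of coding genes. In the promoter window 2 had one, tba-2 with a signal of 73.7 and tbg-1 with 48.4. The 3′ end signals were 164, 156, 154 and 52.3 at act-1, act-2, act-3 and act-4, and 109, 90.3 and 63.6 at tbb-2, tba-1 and tba-2. The actin genes are near-identical copies of each other, and their separate values are uncertain.

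Of 14 listed genes of mitochondrial chaperones, proteases and stress response, also a chosen set, 7 had a final promoter summit, against 5.58% of coding genes, and 2 a final 3′ end summit, against 3.15%. They include hsp-6, for the mitochondrial Hsp70, with signals of 71.5 at the promoter and 90.4 at the 3′ end, and atfs-1, for the factor that drives the mitochondrial unfolded protein response, with 57.7 at the promoter. Promoter summits also lay at the prohibitin genes phb-1 (67.1) and phb-2 (57.02), at the protease genes ymel-1 (58.2) and spg-7 (46.4), and at Y22D7AL.10, whose peak is that of hsp-60. Y22D7AL.10 also had a final summit at its 3′ end, with a signal of 53.3. The protease gene clpp-1 had one in its gene body, with 67.4. Among 11 matched genes of heat shock regulation and cytosolic Hsp90 and Hsp70, 4 had a final promoter summit, against 5.58% of coding genes, and 4 a final 3′ end summit, against 3.15%. At the promoter the signals were 210.1 at hsp-110, 128 at bag-1, 125 at hsp-1 and 59.9 at sti-1. At the 3′ end they were 328 at hsp-1, 309 at hsp-90, 187 at hsp-110 and 68.9 at sti-1. The 3′ end signals of hsp-1, hsp-90 and hsp-110 were above those of every CCT gene.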

How the data were processed

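Peaks of eGFP-tagged ALY-2 from 2 replicates of 1 group were read from the deposited ce11 lists. Per the labels and the deposited description files, the replicate and pooled lists are the authors' input to an irreproducible discovery rate (IDR) step, made against a control alignment, and the final list is its thresholded output. For aligner, peak caller, versions, IDR threshold and depth, nothing is given in the sources used here. Each peak's signal and −log10 q-value are the authors' deposited values, used only to rank and describe peaks within a list. Lists on ce10 were not used.

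The members and gene lists were chosen with earlier results of these data known. A summit is the deposited peak start plus the summit offset, counted from 1. Windows were taken from the Ensembl annotation, and bases from RefSeq's genome, both WBcel235. A summit was credited to every gene whose window held it. Genes were named by a rule: all members, all genes sharing a final promoter summit with them, and list genes with a final summit. Other neighbours of the members were named after their values were seen. Of the listed names, daf-21 was not matched and hsp-90 was. Promoter sequences were read from the genome. With 1 group, no test was made, and counts stand beside those over all coding genes. The code that assigns summits to windows was checked on simulated positions, which is no test of the counts. Alternatives changed the replicate behind the list, the threshold, the windows, the unit counted and the 5′ end used. Python 3.11.15, pandas 2.3.3 and numpy 2.4.6 were used.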

Additional observations from a re-analysis of the deposited data

How the results depend on the processing

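The count of 8 genes with a final summit in any window stayed within 1.5 times under every alternative run on it, and the promoter count of 4 genes did so under all but one. When a summit counted for the closest 5′ end alone, 0 genes and 0 CCT genes kept a promoter summit. That setting was not run on the count of 8, nor was the one that leaves out 3′ end summits in promoter windows of other coding genes. The 3′ end count of 5, against 3.15% of coding genes, was 3 (1.69%) in the upper 50% of final peaks, 9 (5.81%) with the pooled list taken to 2892 peaks, and 3 (1.71%) without summits in promoter windows of other coding genes, a setting chosen after seeing the data. The gene body count of 2, against 2.32% of coding genes, was 0, 5 and 4 in the upper 50%, with 2892 pooled peaks and by overlap of whole peaks, against 1.1%, 4.86% and 5.35% of coding genes, and 1 to 3 with either replicate alone. The median of the highest promoter signal, 37.4 over all genes and 31.9 over CCT genes, was 16.6 to 22.2 and 15.4 to 19.1 with either replicate alone, whose lists have scales of their own, and 26.3 over all genes with 500 bp upstream, where the hsp-60 summit drops out. Depth is unknown, so no limit from counting error could be given for any peak or for a window without one. No paired analysis was possible because there is 1 group.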
